A study of Danio rerio with 12 samples.

Results

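The draculin genes of the zebrafish are a small cluster of zinc finger genes first described in the early lateral plate mesoderm. Members were all rows whose zebrafish gene name is drl or begins with drl. or drll, which gave 4 of the 32520 genes in the count table. They were drl (ENSDARG00000078004), drll.1 (ENSDARG00000035151), drll.2 (ENSDARG00000035150) and drll.3 (ENSDARG00000095635). Gene names alone chose them and no measured value entered the rule, though it was set with earlier results of these data known.

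The lateral plate mesoderm is the sheet of embryonic cells that gives rise to blood, vessels, heart, kidney and fins. In zebrafish drl marks this sheet from gastrulation onwards, and its regulatory DNA drives reporters that later stay bright in the heart and in blood cells. Its protein carries C2H2 zinc fingers, a fold that commonly binds DNA, and the other members of the cluster are related zinc finger genes. In the moonshine line, abbreviated mon, the mutated gene is trim33, which encodes a chromatin cofactor needed for red blood cell formation.

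Whole embryos were collected at 22 and 30 hours post fertilization (hpf), and RNA depleted of ribosomal RNA was sequenced from pools of 30 embryos. Each stage had 3 libraries of mon embryos and 3 of their siblings, which made 4 groups and 12 libraries. Clutches 9, 11 and 13 gave the libraries of 22 hpf and clutches 3, 4 and 9 those of 30 hpf, each clutch being the offspring of a single pair. Parents were heterozygous for mon, and only 1 of each pair brought in the drl:EGFP transgene. Embryos were divided by green fluorescence from about 21 hpf, so a mon pool holds embryos with weak reporter signal. The other pools are labelled wild-type/het, and they may contain carriers of the mutation. No embryo is labelled as genotyped, and all groups came from the same kind of cross. Embryos of both kinds were untreated.

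The reporter uses regulatory DNA of drl, so a lower level of drl in mon is not independent of the way the embryos were divided. No reporter of drll.1, drll.2 or drll.3 was used, so their transcripts were not what the embryos were divided on. They do lie beside drl, and whether they share its regulation was not tested. As the reporter stays bright in blood cells, any transcript of those cells may be tied to the division through cell number. That tie was not tested either. In whole embryos, fewer cells of a type and less RNA per cell cannot be told apart.

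Library totals ran from 18233320 to 23135676 counts, with 26261 to 26974 genes detected, and 21778 genes passed the filter on low counts. All 4 draculin genes passed it. The mutated gene trim33 (listed as TRIM33, ENSDARG00000016181) averaged 58.7 ± 8.55 CPM in mon and 86.4 ± 2.66 CPM in siblings at 22 hpf (SD, n = 3 each), where CPM is the count scaled to the TMM-adjusted library total in the usual unit of that name. At 30 hpf it averaged 72.4 ± 0.652 CPM in mon and 76.6 ± 1.27 CPM in siblings. The log2 fold change, mon over sibling, was -0.56 ± 0.08 (SE) at 22 hpf (edgeR quasi-likelihood, Benjamini-Hochberg adjusted p = 0.00129) and -0.08 ± 0.08 at 30 hpf (edgeR, adjusted p = 1.0). Mutant mRNA can be stable, and the labels are therefore only partly checked by this gene. Replicates of a group are pools from different clutches, so p-values measure the spread between clutches. Mon and sibling pools of a stage came from the same clutches. The main fit did not use this pairing, and the alternative fit with clutch as a block did.

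The draculin genes were read at shallow depth. Per library, drl had 13 to 204 counts, drll.1 had 1 to 141, drll.2 had 0 to 56 and drll.3 had 2 to 42. Since transcript lengths were not used, levels are compared within a gene and not between genes. In the RefSeq gene table of another assembly, GRCz12tu, all 4 genes sit on chromosome 5 in the order drll.3, drll.2, drl, drll.1. The spans of drl and drll.1 overlap there, so reads of a shared stretch could have been assigned to either gene or to neither.

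The first comparison asked which draculin transcripts differ in mon once mutants can be recognised, at 22 hpf. At this stage drl and drll.1 were lower in mon and drll.2 lay below the siblings in every library without passing the test, while drll.3 did not separate the groups. Of the 4 genes, 2 were called lower at an adjusted p under 0.05, against 0.312% of all tested genes called lower. Of the 2 called genes, drl is the gene of the reporter used to divide the embryos and drll.1 is not. The median log2 fold change of the 4 genes, drl included, was -2.33, against 0.00 over all tested genes.

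The founding member drl had 1.60, 1.95 and 1.56 CPM in the mon libraries of clutches 9, 11 and 13, against 7.89, 7.41 and 9.70 CPM in the sibling libraries of the same clutches. The groups were far apart, with the highest mon library below the lowest sibling library. Its log2 fold change was -2.28 ± 0.23 (SE; edgeR, adjusted p = 1.94e-05). The pooled counts were 4.86-fold lower in mon, with a 95% exact binomial interval of 3.93 to 6.06 that covers counting error only. This gene was the one tied to the reporter used to divide the embryos.

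The neighbouring paralogue drll.1 had 0.145, 0.409 and 1.07 CPM in the mon libraries of clutches 9, 11 and 13, against 3.36, 3.33 and 7.24 CPM in the sibling libraries. Clutch 13 was the highest of its group in both, and the groups did not overlap. Its log2 fold change was -3.11 ± 0.50 (edgeR, adjusted p = 0.00377), and pooled counts were 8.86-fold lower in mon (interval 6.13 to 13.2). Fitted on the libraries of 22 hpf alone, drll.1 was not called (edgeR, adjusted p = 0.148).

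The next paralogue, drll.2, had 0.0968, 0.318 and 0.966 CPM in the mon libraries, against 1.73, 2.54 and 2.87 CPM in the sibling libraries, in the same clutch order. Here too clutch 13 was highest in both groups, and no mon library reached a sibling library. The log2 fold change was -2.39 ± 0.56 (edgeR, adjusted p = 0.0916), short of the threshold. It passed with clutch as a block (log2 -2.55, edgeR, adjusted p = 8.32e-05) and without the mon library of clutch 13 (log2 -3.47, edgeR, adjusted p = 0.00972). It also passed by DESeq2 (adjusted p = 0.0123), by limma-voom (adjusted p = 0.0215) and with no filter on low counts (edgeR, adjusted p = 0.0346). These were 5 of 21 alternatives.

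The last member, drll.3, which knockdown work in zebrafish has linked to primitive blood formation, had 0.484, 0.409 and 0.376 CPM in the mon libraries and 0.662, 2.09 and 0.257 CPM in the sibling libraries. The mon libraries lay close together and the sibling libraries spread above and below them, with clutch 11 alone well above. The fitted log2 fold change was -1.24 ± 0.67 (edgeR, adjusted p = 1.0). Without the sibling library of clutch 11 it was -0.12. Pooled counts were 2.39-fold lower in mon (interval 1.48 to 3.94, for counting error only), but the spread between sibling clutches was wider than the difference.

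**Figure D1:**
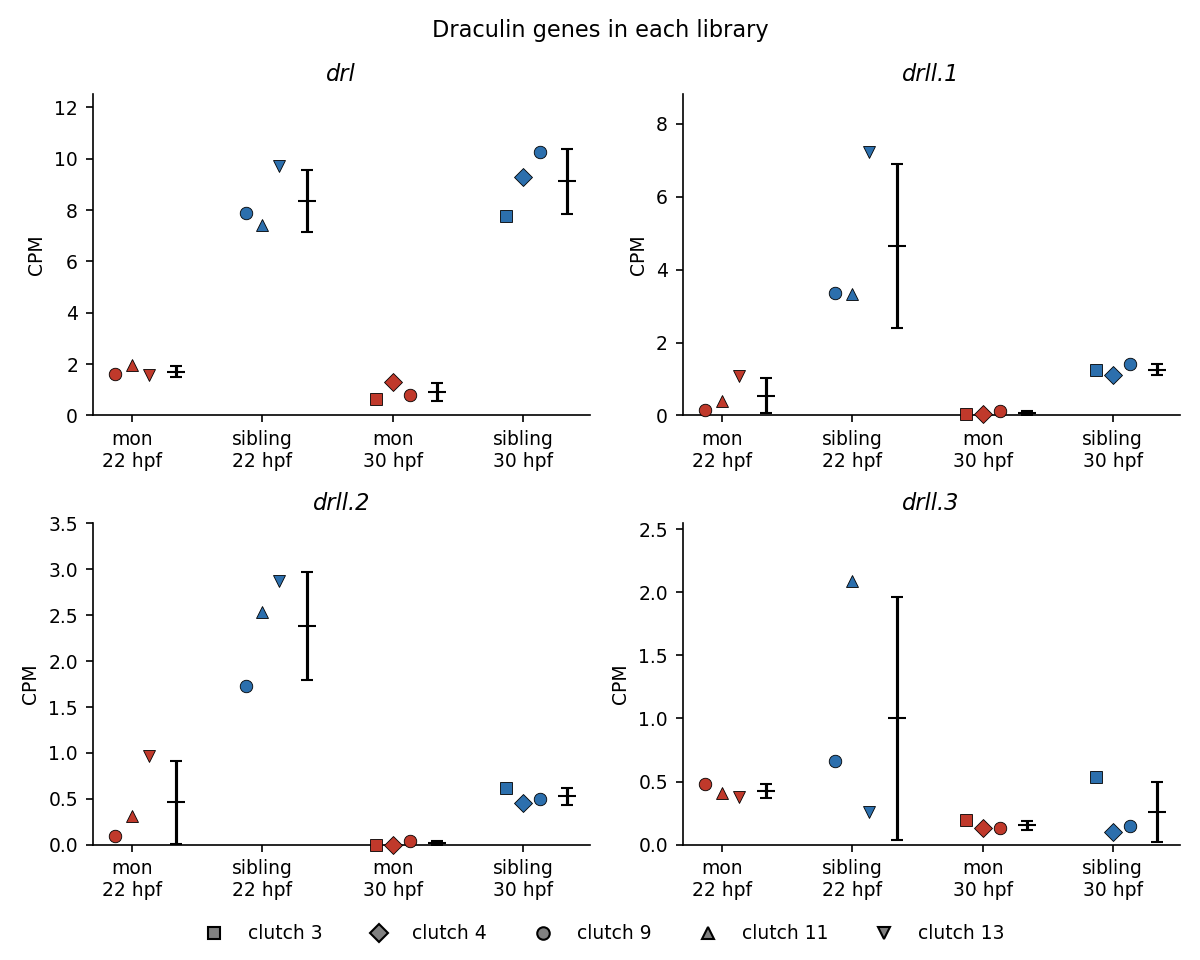
Normalised level (CPM, linear axis from 0, a separate scale for each gene) of the 4 draculin genes in the 12 libraries. Each symbol is a library and its shape gives the clutch, red for mon and blue for siblings. The bars beside each group give the mean ± SD over 3 libraries, cut at 0 where the SD exceeds the mean. Mon libraries of drl, drll.1 and drll.2 lie below all sibling libraries of their stage, while those of drll.3 overlap with them.

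At 30 hpf the same comparison was made in later embryos. At this stage drl, drll.1 and drll.2 were all lower in mon, and drll.2 was down to a single read over 3 mon libraries. Of the 4 genes, 3 were called lower, against 0.551% of all tested genes called lower. Of the 3 called genes, drl is the gene of the reporter used to divide the embryos, and drll.1 and drll.2 are not. On the libraries of 30 hpf alone 2 were called, and drll.2 did not pass the low-count filter. The median log2 fold change of the 4 genes, drl included, was -3.61, against 0.00 over all tested genes.

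For drl the mon libraries of clutches 3, 4 and 9 held 0.640, 1.32 and 0.798 CPM, against 7.79, 9.27 and 10.3 CPM in the sibling libraries. The separation was wide, with no overlap. Its fitted log2 value, mon over sibling, was -3.29 ± 0.25 (edgeR, adjusted p = 2.41e-07), and pooled counts were 9.78-fold lower in mon (interval 7.49 to 13.0). The call on drl held in all 21 alternatives at each stage, with log2 values of -2.40 to -2.10 at 22 hpf and of -3.65 to -3.10 at 30 hpf. Its tie to the reporter holds at this stage too.

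For drll.1 the mon libraries held 0.0493, 0.0455 and 0.133 CPM, against 1.25, 1.103 and 1.41 CPM in the sibling libraries. All mon values were near the level of a few reads, 5 in all against 78 in siblings, and the groups did not overlap. The log2 fold change was -3.92 ± 0.70 (edgeR, adjusted p = 0.00733), and the ratio of pooled counts was 16.2-fold lower in mon with a wide interval of 6.67 to 51.4. The call was lost by limma-voom (adjusted p = 0.0969), and by edgeR without the mon library of clutch 3 (adjusted p = 0.0645) or of clutch 4 (adjusted p = 0.0716).

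For drll.2 the mon libraries of clutches 3, 4 and 9 held 0, 0 and 0.0443 CPM, against 0.623, 0.451 and 0.504 CPM in the sibling libraries. This was 1 read in mon and 33 in siblings, a ratio of 34.3 with an interval of 5.75 to 1397. The fitted log2 fold change was -4.64 ± 1.00 (edgeR, adjusted p = 0.0355), and its size rests on that single read. In the fit on the libraries of 30 hpf alone drll.2 did not pass the low-count filter. It was thus tested at this stage only with the libraries of 22 hpf in the fit. The call was made in 11 of 20 alternatives, with adjusted p-values of 0.000285 (edgeR, clutch as a block) to 0.201 (edgeR, without the mon library of clutch 4). It was also lost without the mon library of clutch 3 (edgeR, adjusted p = 0.173) or 9 (0.0834), and without the sibling library of 30 hpf of clutch 3 (0.125), 4 (0.0776) or 9 (0.0894). The same held without the sibling library of 22 hpf of clutch 11 (edgeR, adjusted p = 0.0552) or 13 (0.0504), and without both stages of clutch 9 (0.0815).

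For drll.3 the mon libraries held 0.197, 0.137 and 0.133 CPM, against 0.534, 0.1003 and 0.151 CPM in the sibling libraries. Apart from the sibling library of clutch 3 the values were alike, and the groups overlapped. The fitted log2 fold change was -0.77 ± 0.85 (edgeR, adjusted p = 1.0), on 10 reads in mon and 17 in siblings. Pooled counts were 1.77-fold lower in mon, with an interval of 0.765 to 4.32 that includes no difference, so none was detectable at this depth.

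Counting genes by separation rather than by the test, drl, drll.1 and drll.2 had every mon library below every sibling library at both stages. Of all tested genes, 4.33% were so separated at 22 hpf and 6.3% at 30 hpf, and the share separated at both stages was not counted. Within clutches, drl, drll.1 and drll.2 were each lower in the mon pool in 6 of 6 pairs and drll.3 in 4 of 6. The paired log2 differences ran from -3.65 to -1.91 for drl, from -4.32 to -2.73 for drll.1, from -4.74 to -1.55 for drll.2 and from -2.29 to 0.51 for drll.3. An exact two-sided permutation test over both stages, with labels exchanged within a stage, gave p = 0.005 for drl, drll.1 and drll.2, the smallest of its 400 arrangements. For drll.3 the exact test gave p = 0.35. Within 1 stage, 3 libraries against 3 cannot go below an exact p = 0.1, the value of these 3 genes at each stage.

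The size of the mon effect was then compared between the members, as the log2 ratio of 2 genes in a library, so that transcript length cancels. In all 6 pairs of genes were tested with the same exact permutation test. The fall in mon was larger for drll.1 than for drll.3 (log2 difference -2.997, exact permutation p = 0.01, adjusted p = 0.03, in 6 of 6 clutch pairs) and for drll.2 than for drll.3 (-2.83, exact p = 0.01, adjusted p = 0.03, 6 of 6). It was also larger for drl than for drll.3 (-2.25, exact p = 0.015, adjusted p = 0.03, 5 of 6). The first 2 of these differences involve no gene of the reporter. The test averages log2 CPM over libraries, which put drll.3 itself at -0.74 at 22 hpf and -0.37 at 30 hpf. The edgeR fit gave drll.3 larger falls, -1.24 ± 0.67 and -0.77 ± 0.85, so the size of these differences depends on the scale.

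Among drl, drll.1 and drll.2 no pair passed. The log2 differences were 0.75 for drl minus drll.1 (exact permutation p = 0.16, adjusted p = 0.24), 0.58 for drl minus drll.2 (exact p = 0.32, adjusted p = 0.384) and -0.17 for drll.1 minus drll.2 (exact p = 0.44, adjusted p = 0.44). A p above the threshold does not show that these 3 genes were equally affected. The 3 differences from drll.3 were not called with clutch as a block, when signs of the 6 clutch pairs were flipped (exact adjusted p = 0.125 for drl and 0.0938 for drll.1 and drll.2). The 64 sign flips allow no p below 0.03125, where the differences of drll.1 and drll.2 stood. A larger difference could not have lowered their p, and their adjusted p depended on how many of the 6 pairs reached this floor. None of the 6 pairs passed without the library of clutch 9 of mon at 22 hpf, of clutch 3 of mon at 30 hpf or of clutch 13 of siblings at 22 hpf, nor without clutch 13 altogether.

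Genes on either side of the cluster served as a local comparison. Of 9 genes close to it in the GRCz12tu order, 7 had enough reads to test: alkbh4, lrwd1, bckdk and orai2 on the side of drll.3, and ap2b1, hnrnpul1l and ENSDARG00000057245 on the side of drll.1. Their log2 fold changes ran from -0.04 to 0.35 at 22 hpf, with a median of 0.06, and from -0.30 to 0.09 at 30 hpf, with a median of -0.07. By edgeR 0 of 7 were called at either stage, with 0 at an unadjusted p under 0.05, and DESeq2, limma-voom and the fit with clutch as a block also called 0. Over all 21778 tested genes, edgeR called 97 at 22 hpf and 172 at 30 hpf, so 0 of 7 does not set these genes apart from others. On the side of drll.3, orai2, a calcium channel gene, had a log2 value of 0.25 ± 0.30 (SE) at 22 hpf and of -0.12 ± 0.29 at 30 hpf. Beside drll.1, ap2b1, a clathrin adaptor subunit gene, had values of -0.01 ± 0.06 at both stages.

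**Figure D2:**
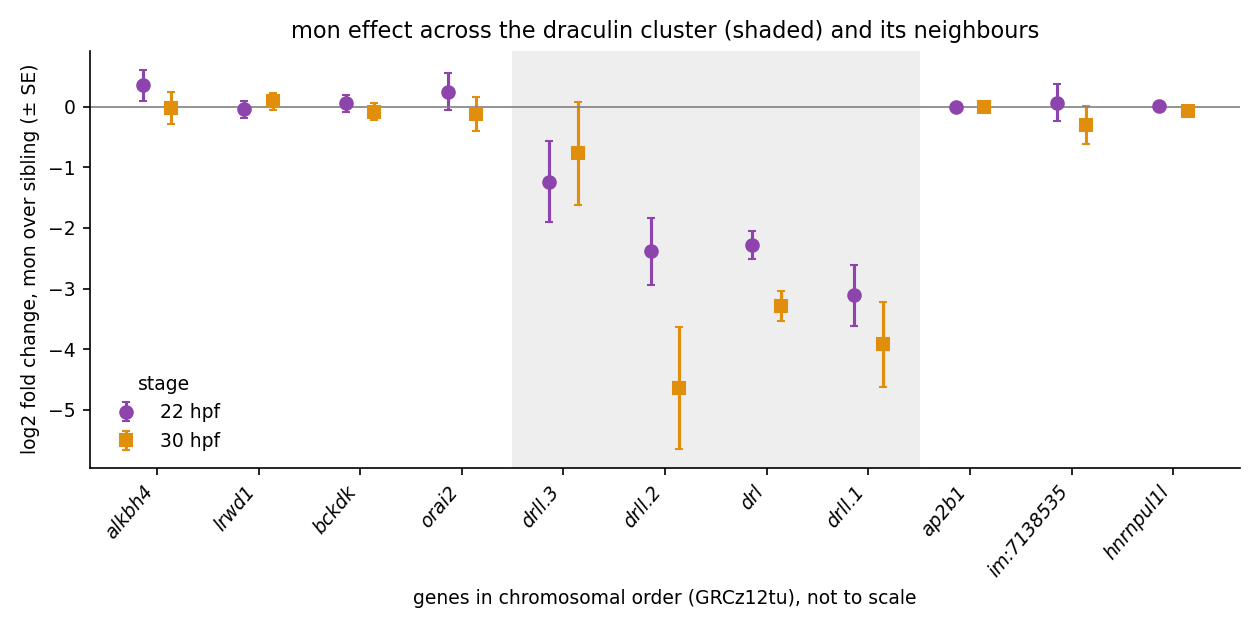
Log2 fold change, mon over sibling, of the draculin genes (shaded) and 7 tested genes around them in chromosomal order, evenly spaced and not to scale. Circles are 22 hpf and squares 30 hpf, and bars are ± 1 SE from the fit; drl, drll.1 and drll.2 lie between -2.28 and -4.64 and these 7 genes between -0.30 and 0.35.

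The difference between the stages in the mon effect was tested in the same fit. It was -1.01 ± 0.34 on the log2 scale for drl, -0.81 ± 0.89 for drll.1, -2.25 ± 1.24 for drll.2 and 0.47 ± 1.14 for drll.3, as 30 hpf minus 22 hpf. By edgeR 0 of 4 passed (adjusted p = 1.0 for each), against 0.0872% of all tested genes called in either direction. At an unadjusted p under 0.05 there was 1, drl, and DESeq2 and limma-voom called 0. Leaving out the mon library of clutch 13 at 22 hpf turned the value of drll.1 to 0.10. Leaving out the sibling library of clutch 11 at 22 hpf turned that of drll.3 to -0.65. For drll.2 the value was -4.06 without the mon library of clutch 9 at 30 hpf, -1.17 without the mon library of clutch 13 at 22 hpf, -4.41 without clutch 9, -1.33 without clutch 13 and -1.23 by limma-voom, and none of these was called.

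A further comparison followed each gene over time, 30 hpf against 22 hpf, within each kind of embryo. In both kinds the group values of drll.1 and drll.2 were lower at 30 hpf. In mon of clutch 9, the only clutch sampled at both stages, drll.1 hardly changed (log2 -0.11). For drl the change passed the test in mon and not in siblings, whose 6 libraries held 7.41 to 10.3 CPM, and the difference between these changes is the one given above that was not called. In mon 3 of 4 draculin genes were called lower at 30 hpf, against 20.2% of all tested genes. In siblings 3 of 4 were called lower, against 20.7%. The median log2 change was -2.06 in mon and -1.88 in siblings, where all tested genes had -0.01 and -0.02.

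The stage values of drl were 0.920 ± 0.356 CPM at 30 hpf in mon (SD, n = 3), against 1.70 ± 0.217 CPM at 22 hpf. In siblings drl had 9.11 ± 1.25 CPM at 30 hpf and 8.33 ± 1.21 CPM at 22 hpf. The log2 change was -0.88 ± 0.27 (SE) in mon (edgeR, adjusted p = 0.0141) and 0.13 ± 0.20 in siblings (edgeR, adjusted p = 0.649). The call in mon was lost in 6 of 20 alternatives, among them limma-voom (adjusted p = 0.0516) and clutch as a block (log2 -0.73, edgeR, adjusted p = 0.0780). By edgeR it was also lost without clutch 9 (adjusted p = 0.102) and without the mon library of clutch 11 at 22 hpf (0.0597), of clutch 3 at 30 hpf (0.0696) or of clutch 9 at 30 hpf (0.0576).

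Levels of drll.1 averaged 0.0759 ± 0.0494 CPM at 30 hpf in mon and 0.543 ± 0.479 CPM at 22 hpf, and in siblings 1.25 ± 0.154 CPM at 30 hpf and 4.64 ± 2.25 CPM at 22 hpf. The log2 change was -2.69 ± 0.77 in mon (edgeR, adjusted p = 0.00992) and -1.88 ± 0.45 in siblings (edgeR, adjusted p = 0.00264). In mon the call was lost without the mon library of clutch 13 at 22 hpf (edgeR, adjusted p = 0.0830), without clutch 13 (0.0535), with clutch as a block (log2 -1.70, adjusted p = 0.0680) and by limma-voom (adjusted p = 0.101). Sibling libraries of the 2 stages did not overlap. Such separation was not counted over all tested genes, 20.7% of which were called lower at 30 hpf in siblings.

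Levels of drll.2 averaged 0.0148 ± 0.0256 CPM at 30 hpf in mon and 0.460 ± 0.452 CPM at 22 hpf, and in siblings 0.526 ± 0.0879 CPM at 30 hpf and 2.38 ± 0.588 CPM at 22 hpf. The log2 change was -4.41 ± 1.03 in mon (edgeR, adjusted p = 0.00216), a size that rests on 1 read at 30 hpf, and -2.16 ± 0.55 in siblings (edgeR, adjusted p = 0.00378). The call in mon was made in 20 of 20 alternatives.

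Levels of drll.3 averaged 0.156 ± 0.0360 CPM at 30 hpf in mon and 0.423 ± 0.0556 CPM at 22 hpf, and in siblings 0.262 ± 0.237 CPM at 30 hpf and 1.00 ± 0.963 CPM at 22 hpf. The log2 change was -1.42 ± 0.81 in mon (edgeR, adjusted p = 0.176) and -1.88 ± 0.70 in siblings (edgeR, adjusted p = 0.0386). The sibling value was -0.77 without the library of clutch 11 at 22 hpf (edgeR, adjusted p = 0.442). The call was also lost without the sibling library of clutch 4 (edgeR, adjusted p = 0.142) or 9 (0.129) at 30 hpf, without clutch 9 (0.152) and by limma-voom (adjusted p = 0.0838).

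The stages share only clutch 9, so stage and clutch are largely confounded and cannot be told apart for the other clutches. Within clutch 9, without a test, the log2 change of drll.1 was -0.11 in mon (3 counts at each stage) and -1.24 in siblings. That of drll.2 was -0.82 in mon (2 counts at 22 hpf and 1 at 30 hpf) and -1.73 in siblings. With clutch as a block, none of the sibling changes was called: drll.1 had -0.95 (edgeR, adjusted p = 0.126), drll.2 -1.34 (edgeR, adjusted p = 0.151) and drll.3 -2.13 (edgeR, adjusted p = 0.0583).

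**Figure D3:**
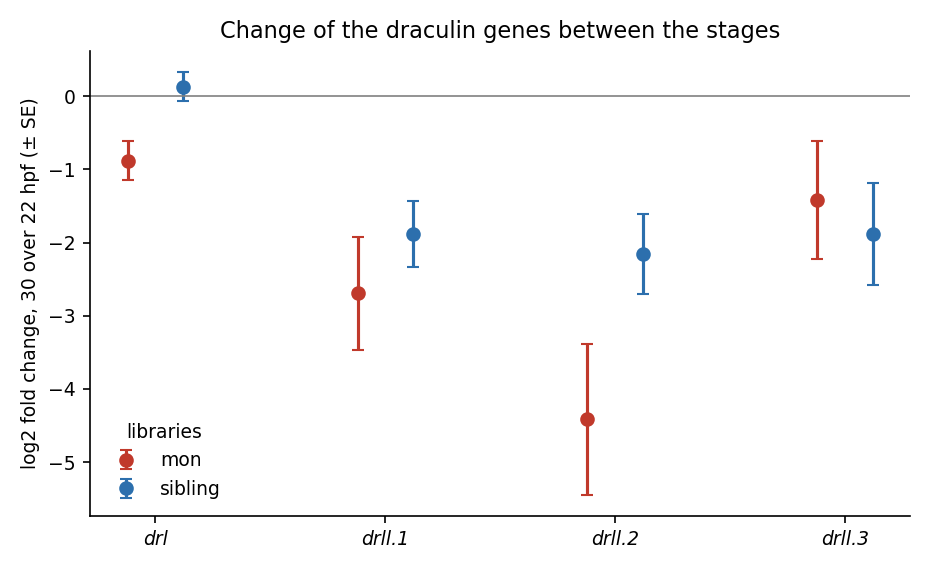
Log2 fold change of each draculin gene at 30 hpf over 22 hpf, in mon (red) and in siblings (blue), with bars of ± 1 SE from the fit. In siblings drl lies at 0.13 while drll.1, drll.2 and drll.3 lie between -2.16 and -1.88, and in mon all 4 lie below 0.

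The stage changes of the members were set against each other with the exact permutation test, a test chosen after the values were seen. Relative to drl, drll.1 fell further with stage by a log2 difference of 1.60 (drl minus drll.1, exact permutation p = 0.015, adjusted p = 0.04) and drll.2 by one of 2.32 (exact p = 0.01, adjusted p = 0.04). The value for drll.1 minus drll.2 was 0.72 (exact p = 0.02, adjusted p = 0.04), made up of 1.12 in mon and 0.33 in siblings. The mon part rests on 5 counts of drll.1 and 1 of drll.2 at 30 hpf. The pairs with drll.3 gave 1.11 for drl (exact p = 0.12, adjusted p = 0.174), -0.49 for drll.1 (exact p = 0.53, adjusted p = 0.53) and -1.21 for drll.2 (exact p = 0.145, adjusted p = 0.174). This test exchanges stages without regard to clutch. Mon and sibling pools of a clutch count as separate units in it, though their deviations from group means correlated at 0.507 to 0.695. Its p-values can therefore be too small. Clutch 9 alone was sampled at both stages, with 1 pair of libraries per genotype and no test. There, drl minus drll.1 was -0.87 in mon and 1.62 in siblings, drl minus drll.2 was -0.16 in mon and 2.11 in siblings, and drll.1 minus drll.2 was 0.71 in mon and 0.49 in siblings. Within clutch 9 the sign of drl minus drll.1 and of drl minus drll.2 was thus that of the pooled test in siblings and the opposite in mon. The mon values rest on 3 counts of drll.1 at each stage and on 2 and then 1 of drll.2, too few to order the genes.

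The members were also compared in how they varied between clutches of a group. Over the 12 libraries, deviations from the group means on the log2 scale had a Pearson r of 0.94 between drll.1 and drll.2, 0.02 between drl and drll.1 and -0.11 between drl and drll.2. These are descriptions over libraries that share 5 clutches, and low counts add noise to each. The widest deviations of drll.1 and drll.2 were in the mon libraries of clutches 9 and 13 at 22 hpf. There drll.1 had 3 and 20 counts and drll.2 had 2 and 18. The r of 0.94 thus leans on libraries with few reads, and it was not computed for siblings alone. The r of drll.3 was -0.49 with drl, -0.35 with drll.1 and -0.07 with drll.2.

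The genes most like each member were sought among 17582 genes with a symbol and a mean of at least 1 CPM, by Pearson r of log2 CPM over the 12 libraries. The libraries share stage, genotype and clutch, so a high r can arise from the group means alone. Among the genes nearest to drl were the embryonic alpha globin hbae4 (0.98, ENSDARG00000045144), the heme synthesis gene UROD (0.96, ENSDARG00000006818), the embryonic beta globin hbbe3 (0.96, ENSDARG00000038147) and parm1 (0.96, ENSDARG00000114063). Their Spearman rank correlations with drl were 0.95 for hbae4, 0.87 for UROD, 0.87 for hbbe3 and 0.77 for parm1. In mon hbae4 had 4 counts at 22 hpf and 0 at 30 hpf, so its r leans on libraries with few reads.

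The gene nearest to both drll.1 (0.98) and drll.2 (0.97) was klf17 (ENSDARG00000038792), a Krüppel-like zinc finger gene of early blood and hatching gland. Next for both came znfl2a (0.91 and 0.96, ENSDARG00000008333), a further zinc finger gene, and igsf9b (0.91 and 0.93, ENSDARG00000010408). The list of drll.1 went on with hdr (0.91, ENSDARG00000004392), a death receptor gene of blood, and HOXC9 (0.90, ENSDARG00000092809). That of drll.2 went on with foxi3a (0.92, ENSDARG00000055926), an ionocyte factor gene, and larp1b (0.91, ENSDARG00000061169).

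The level of klf17 averaged 12.9 ± 1.86 CPM in mon and 28.4 ± 3.08 CPM in siblings at 22 hpf (SD, n = 3 each), and 7.33 ± 0.687 CPM in mon and 17.1 ± 0.234 CPM in siblings at 30 hpf. Its log2 fold change was -1.13 ± 0.12 (SE) at 22 hpf (edgeR, adjusted p = 5.23e-05) and -1.22 ± 0.13 at 30 hpf (edgeR, adjusted p = 2.26e-05). The level of znfl2a averaged 14.3 ± 2.07 CPM in mon and 26.3 ± 0.923 CPM in siblings at 22 hpf, and 4.19 ± 0.674 CPM in mon and 13.1 ± 1.16 CPM in siblings at 30 hpf. Its log2 value was -0.88 ± 0.13 at 22 hpf (edgeR, adjusted p = 0.0015) and -1.64 ± 0.14 at 30 hpf (edgeR, adjusted p = 2.23e-06). Both klf17 and znfl2a were picked for likeness to drll.1 and drll.2 in these same libraries, so their p-values are not independent of that choice. Of the other genes on these lists, hdr was called lower in mon at both stages (log2 -2.03 at 22 hpf and -2.22 at 30 hpf). By edgeR igsf9b, HOXC9, foxi3a and larp1b were not called at either stage.

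Genes nearest to drll.3 were TADA2B (0.93, ENSDARG00000003769), SEPTIN8 (0.91, ENSDARG00000032606), TAX1BP1 (0.90, ENSDARG00000056856), si:ch73-30l9.1 (0.89, ENSDARG00000095891) and b3gnt7l (0.89, ENSDARG00000053133). Their Spearman rank correlations with drll.3 ran from 0.81 for b3gnt7l to 0.90 for TADA2B. None of them was in the list of another member.

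**Figure D4:**
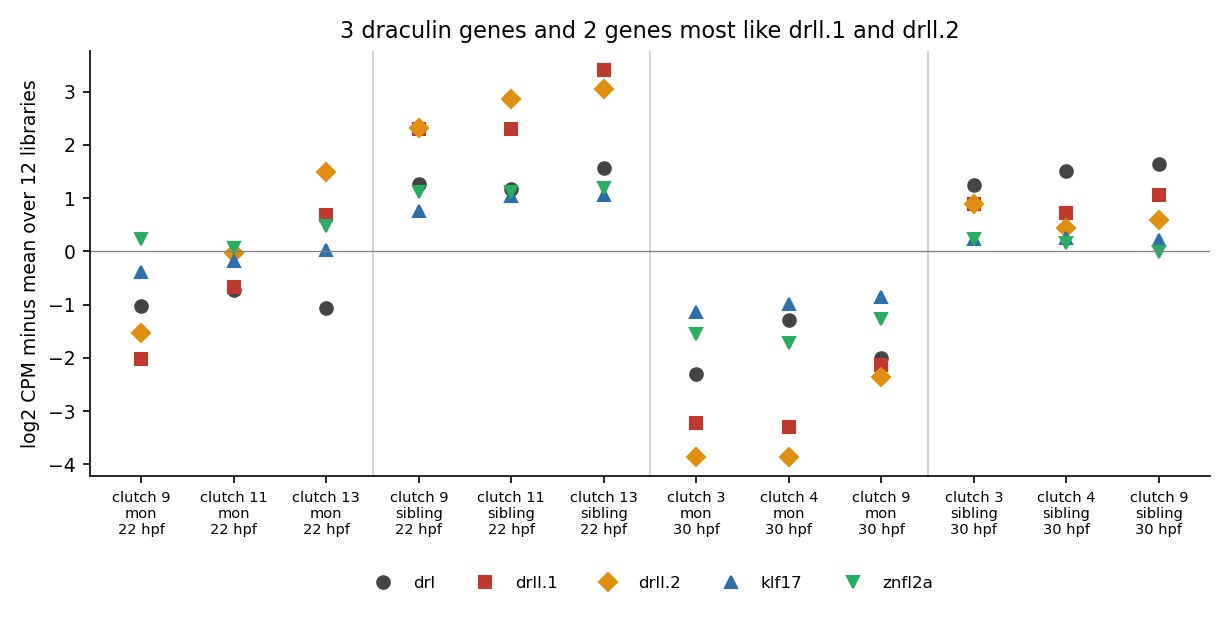
Log2 CPM minus the mean over the 12 libraries, for drl, drll.1, drll.2 and the genes klf17 and znfl2a, by library (mon left of siblings at each stage, with the clutch below). At 22 hpf drll.1 and drll.2 stand highest in the clutch 13 library of each group, while drl in mon does not.

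The pathway around these genes was described with lists of regulators and products of blood. By edgeR, the lists of zinc finger genes, erythroid regulators and red cell products had no gene called higher in mon at either stage. Of all tested genes, 0.312% were called lower at 22 hpf and 0.551% at 30 hpf. Of 10 other zinc finger genes of blood that could be tested, 7 were lower at each stage, with a median log2 fold change of -1.65 at 22 hpf and -1.51 at 30 hpf. Among them gata1a, the master regulator of red cell genes, stood at -4.17 ± 0.35 on the log2 scale at 22 hpf (edgeR, adjusted p = 2.1e-06) and at -4.45 ± 0.34 at 30 hpf (edgeR, adjusted p = 3.5e-07). The globin activator klf1 had -2.95 ± 0.47 at 22 hpf (edgeR, adjusted p = 0.00311) and -5.10 ± 0.43 at 30 hpf (edgeR, adjusted p = 1.05e-06).

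Of 14 erythroid regulators, 7 were lower at 22 hpf and 8 at 30 hpf, against 0.312% and 0.551% of all tested genes. Their median log2 fold changes were -0.93 at 22 hpf and -1.12 at 30 hpf. This list shares 7 tested genes with that of the zinc finger genes (gata1a, gfi1aa, gfi1b, ikzf1, klf1, klf17 and zfpm1), and 5 of the shared genes were among those called at each stage, so the counts of these lists are not independent. Of 15 red cell products 12 were lower at 22 hpf and 14 at 30 hpf, with medians of -2.27 and -3.44. The transferrin receptor gene tfr1a averaged 3.46 ± 0.523 CPM in mon and 74.2 ± 4.27 CPM in siblings at 22 hpf, and the membrane skeleton gene epb41b averaged 0.222 ± 0.107 CPM in mon and 11.0 ± 1.13 CPM in siblings. The draculin medians, -2.33 and -3.61, lay near those of the red cell products and below those of the zinc finger genes and erythroid regulators. For the red cell products this is a description of 4 genes, drl among them, and 15 genes. Single draculin genes ran from -3.11 to -1.24 at 22 hpf and from -4.64 to -0.77 at 30 hpf.

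Early regulators of the lateral plate mesoderm, the tissue in which drl is first active, were a list of 15 tested genes. By edgeR 0 were called at 22 hpf, with 1 at an unadjusted p under 0.05 and 1 called by DESeq2 and by limma-voom. At 30 hpf 2 were lower by edgeR, TAL1 (ENSDARG00000019930) and LMO2 (ENSDARG00000095019), partner factors of blood and vessel progenitors. Both are also in the list of erythroid regulators. DESeq2 called both and limma-voom 1, TAL1 and not LMO2 (limma-voom, adjusted p = 0.0961). At 30 hpf TAL1 averaged 7.03 ± 2.55 CPM in mon, against 17.3 ± 1.79 CPM in siblings (log2 -1.30 ± 0.19, edgeR, adjusted p = 0.00263), and LMO2 averaged 4.13 ± 0.489 CPM in mon, against 8.35 ± 2.15 CPM in siblings (log2 -1.01 ± 0.20, edgeR, adjusted p = 0.0162). The list median was -0.01 at 22 hpf and 0.00 at 30 hpf. Of all tested genes, 0.312% were called lower at 22 hpf and 0.551% at 30 hpf. Over time, 8 of these 15 genes were called lower at 30 hpf than at 22 hpf in mon and 9 of 15 in siblings, against 20.2% of all tested genes in mon and 20.7% in siblings.

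Markers of other tissues were read beside these results. Over 6 lists, of granulocytes and macrophages, endothelium, heart, pronephros, neural tissue and skeletal muscle, 49 genes could be tested. By edgeR 0 were called at either stage, with 6 at an unadjusted p under 0.05 at 22 hpf and 2 at 30 hpf. DESeq2 called 0 and 1, limma-voom 0 and 0, and the fit with clutch as a block 1 and 3. Over all 21778 tested genes, edgeR called 97 at 22 hpf and 172 at 30 hpf, so 0 of 49 does not set these markers apart from other genes. The list medians lay between -0.15 and 0.04 at 22 hpf and between -0.06 and 0.03 at 30 hpf. The granulocyte list name mpx matched no ID and its name epx matched an ID that was not tested, so these counts cover neither. Another ID carries the symbol EPX (ENSDARG00000019521), and the name tables do not settle which of these peroxidase genes it is. Named after its values were seen, it averaged 0.180 ± 0.0719 CPM in mon and 5.10 ± 1.62 CPM in siblings at 22 hpf. It fell by 4.78 ± 0.41 on the log2 scale at that stage (edgeR, adjusted p = 9.67e-06). At 30 hpf it averaged 12.7 ± 3.04 CPM in mon, against 18.5 ± 4.02 CPM in siblings (log2 -0.53 ± 0.23, edgeR, adjusted p = 0.784).

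Clutch 13 had the highest drll.1 and drll.2 of both groups at 22 hpf and clutch 9 the lowest drll.1 and drll.2 of the mon group. On a scale of developmental position fitted to the sibling stages and chosen after the values were seen, each library was placed against the siblings of the other clutches, with 0 for their mean at 22 hpf and 1 for their mean at 30 hpf. At 22 hpf the clutch 9 pools stood at 0.131 in mon and 0.157 in siblings. Those of clutch 11 stood at 0.0451 in mon and 0.0479 in siblings, and those of clutch 13 at 0.0510 in mon and 0.0728 in siblings. At 30 hpf the mon pools stood at 0.848 to 0.900 and the sibling pools at 0.913 to 0.9499. The part of developmental position in the draculin levels was not tested.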

How the data were processed

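Strand-specific libraries of ribosome-depleted total RNA from whole zebrafish embryos were sequenced, per the labels' protocols. A single table was deposited by the authors and holds unnormalized counts for 32520 Ensembl IDs in 12 libraries. In it, 0 lines named no gene and 0 columns lacked a sample. The tools in the submitters' processing notes are HTSeq, TopHat2 2.0.11, Cufflinks 2.2.1, cutadapt and FastQC, with no roles, and the build is GRCz11. For the annotation release and the strand setting of the counting, the entry is: not given in the sources used here.

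Counts were tested with edgeR 4.0.16 in R 4.3.3 (TMM, filterByExpr, robust glmQLFit, glmQLFTest), all 12 libraries in 1 fit with 4 groups and 8 residual degrees of freedom. The common biological coefficient of variation was 0.142 and TMM factors lay between 0.967 and 1.042. Benjamini-Hochberg adjustment ran over the 21778 tested genes, with calls under 0.05. Each SE was derived by dividing the size of the log2 fold change by the square root of F. Single values and gene pairs were tested with exact permutation tests on log2 CPM with a prior of 0.5 counts, and intervals of pooled counts are 95% exact binomial intervals, which cover counting error only. The procedure was tested on simulated data.

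Libraries pair by clutch, per the labels. Deviations from group means correlated at 0.507 to 0.695 in the 6 pairs of the same clutch, over 10844 genes, and at -0.194 or below between clutches. Deviations within a group sum to 0, so the negative values between clutches are no separate sign of pairing. Within groups the chi-square per gene between libraries was 6.46 to 10.0, and no library repeated another. Alternatives were DESeq2 1.42.0, limma-voom 3.58.1, RLE size factors, other filters, the clutch block, each stage alone, leaving out each library, and leaving out clutch 9 or, added after the data were seen, clutch 13.

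The members and gene lists were chosen with earlier results of these data known. Symbols matched 29201 of the 32520 IDs (89.8%), and 37 of 145 list names matched none. A symbol in capitals comes from an orthologue. The RefSeq table of GRCz12tu, another assembly, gave only names, gene order and gene spans. The genes named were all members, the 5 most alike to each, the 5 neighbours on each side, the genes of smallest p at 30 hpf in each list, up to 3, and trim33. The text names only some of the genes this rule selects, and some are not reported here. EPX was named outside the rule, after its values were seen.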

Additional observations from a re-analysis of the deposited data

How the results depend on the processing

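Over all tested genes 97 were called at 22 hpf, against 157 by DESeq2, 60 without clutch 9, 63 on the libraries of that stage alone and 322 with clutch as a block. At 30 hpf 172 were called, against 95 without clutch 9 and 673 with the block. For the difference between stages 19 were called, against 33 by DESeq2, 12 without clutch 13, 9 without clutch 9 and 105 with the block. Of the draculin genes 2 were called at 22 hpf and 1 on that stage alone; 3 at 30 hpf and 1 to 3 when single libraries were left out; 3 for stage in mon, 1 by limma-voom and 1 with the block; and 3 for stage in siblings and 0 with the block. Of the 6 pairs of members 3 differed in their mon effect, 0 with the block, whose smallest p of 0.03125 limits it, 0 without clutch 13 and 0 to 3 when single libraries were left out. Leaving out single libraries moved drll.3 at 30 hpf between -1.14 and 0.29, and the difference between stages between -1.44 and 0.10 for drll.1, between -4.06 and -1.17 for drll.2 and between -0.65 and 1.52 for drll.3. The effect of drl minus drll.2 was -0.25 with a prior of 2 counts, and that of drll.1 minus drll.2 was 0.22 at 30 hpf alone. Beside these and the losses given with the results, the block ended no call of the mon effect on drl, drll.1 or drll.2; the causes were not tested.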
